A study of Mus musculus with 3 samples.

Results

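The AP-1 family genes described here are Batf, Batf3, Jun, Junb, Jund, Fos, Fosb, Fosl1 and Fosl2, and their surroundings were read from maps of open chromatin (ATAC-seq) in CD4+ T cells of the mouse. Assigned to them were the open regions whose nearest protein-coding gene span, at most 100 kb away, is 1 of these 9 genes: 49 of the 57457 regions obtained by merging the peak lists of all 3 fractions. The rule used position only. The divided fraction held CBir1 T cells that had diluted the dye CellTrace Violet (CTVdim), the undivided fraction CBir1 T cells that had kept it (CTVhi), and the polyclonal fraction the recipients' own CD4+ cells without the CBir1 receptor. CBir1 is a transgenic T cell receptor for a flagellin of gut bacteria, and the transferred cells were naive CD4+ cells from the spleen of CBir1 transgenic mice. All 3 fractions came from the colon-draining mesenteric lymph nodes of the same 4 wild-type C57BL/6J recipients, which kept their own T cells. All recipients had 2% dextran sulfate sodium (DSS) in their water for 7 days, an agent that injures the colon epithelium. FTY720, which stops T cells from leaving lymph nodes, was given to all of them at a dose of 1 mg/kg (days 7, 10 and 13), and cells were taken on day 14. No untreated fraction was analysed here. Per the labels, each fraction was pooled from 2 mice and prepared as 2 such pools. There is 1 peak list for each fraction here, and how the pools entered it is not given. No difference below could therefore be checked against replicates, and no p-value is given.

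AP-1 is a transcription factor made of pairs of basic leucine zipper proteins, mostly a Jun protein with a Fos or BATF protein, that binds the DNA motif TGANTCA. In T cells the receptor and CD28 activate MAP kinases, which induce Fos transcription and phosphorylate Jun, and AP-1 then acts with NFAT at cytokine genes such as Il2. BATF pairs with Jun proteins and with IRF4 at composite motifs and is needed for Th17 and follicular helper cells. The comparison of the fractions asks how the chromatin around the genes of this factor looks in cells that had divided after transfer, in cells that had not, and in the mixed endogenous population.

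The values used are summit pileups, the number of fragments stacked at the highest point of a peak, recovered from the authors' fold enrichment and p-value. They are called fragments here, although they may count reads, since the counting of mates is not stated. The lists held 47963 divided, 41876 undivided and 44426 polyclonal peaks. Read totals are unknown, and 2 measures of relative depth differed. The lowest local background was 1.21 fragments in the divided library, 0.808 in the undivided library and 0.865 in the polyclonal library. The median pileup ratio over the 32680 regions called in all 3 was 1.21 for divided over undivided, 1.19 for divided over polyclonal and 0.989 for undivided over polyclonal. Ratios below are scaled by these medians unless stated, with 95% exact intervals that cover counting error only. The intervals could be too narrow if mates were counted singly. All 6 T cell markers checked (among them Cd3e, Cd4 and Lck) had a peak within 1 kb of a gene end in every library.

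Promoter sequences of 4 members are shown because the peaks over them differ: the Jun promoter carried the strongest peak of the family, Fos is the classic inducible partner, Batf and Batf3 had the highest summed ratios of divided over undivided pileup, and of these Batf3 had no peak over its promoter in any library. They are the 250 bases before the RefSeq gene start on build GRCm38.p6, 5′ to 3′ on the gene's strand, with searched motifs in capitals.
Jun (chr4:95052223-95052472, minus strand): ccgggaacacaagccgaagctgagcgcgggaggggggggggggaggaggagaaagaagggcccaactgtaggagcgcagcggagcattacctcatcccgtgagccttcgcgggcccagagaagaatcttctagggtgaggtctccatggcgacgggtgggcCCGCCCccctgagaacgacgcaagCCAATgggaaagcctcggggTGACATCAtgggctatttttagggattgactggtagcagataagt
Fos (chr12:85473640-85473889, plus strand): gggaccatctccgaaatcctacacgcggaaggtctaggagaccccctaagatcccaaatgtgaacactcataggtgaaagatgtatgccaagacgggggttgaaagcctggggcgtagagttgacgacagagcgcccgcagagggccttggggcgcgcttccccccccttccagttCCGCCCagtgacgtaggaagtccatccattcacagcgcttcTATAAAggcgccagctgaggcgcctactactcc
Batf (chr12:85686470-85686719, plus strand): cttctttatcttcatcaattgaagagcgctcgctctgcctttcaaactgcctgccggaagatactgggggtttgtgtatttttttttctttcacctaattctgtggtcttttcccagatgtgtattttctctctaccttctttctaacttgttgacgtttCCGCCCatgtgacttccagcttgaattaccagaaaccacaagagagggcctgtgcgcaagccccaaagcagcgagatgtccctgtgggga
Batf3 (chr1:191098164-191098413, plus strand): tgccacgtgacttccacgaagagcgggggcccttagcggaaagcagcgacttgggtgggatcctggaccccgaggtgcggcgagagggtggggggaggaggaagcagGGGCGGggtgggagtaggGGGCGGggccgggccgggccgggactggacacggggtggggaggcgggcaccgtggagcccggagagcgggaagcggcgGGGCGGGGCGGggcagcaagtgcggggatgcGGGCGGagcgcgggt

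RefSeq gave promoter windows for 8 of the 9 members, all but Fosl1. In windows from 250 bases before to 50 bases after the start, 6 motifs were searched on both strands. TGANTCA, the AP-1 motif itself, was in 0 of the 8 windows, against 6.99% of 21263 promoters, and the cyclic AMP response motif TGACGTCA in 0 of 8 against 2.23%. The variant TGACATCA, known from the human JUN promoter as a site through which Jun regulates its own gene, was found in Jun alone among the 8, with its first base at -45, and in 3.66% of all promoters. The TATA box TATAAA was in the Fos window at -33 and in the Junb window at the annotated start, and in 12.6% of all promoters. CCAAT was in Jun at -65 and Junb at -36 (38.2% of all), and the GC box GGGCGG in 6 of 8 (46.2% of all), with 5 copies in Batf3, of which those at -46 and -41 overlap. The 250 bases of Batf3 were 76% G and C, those of Batf 46.4%, and the median over all 21263 promoter windows was 55.6%. These matches describe letters in the windows only.

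**Figure D1:**
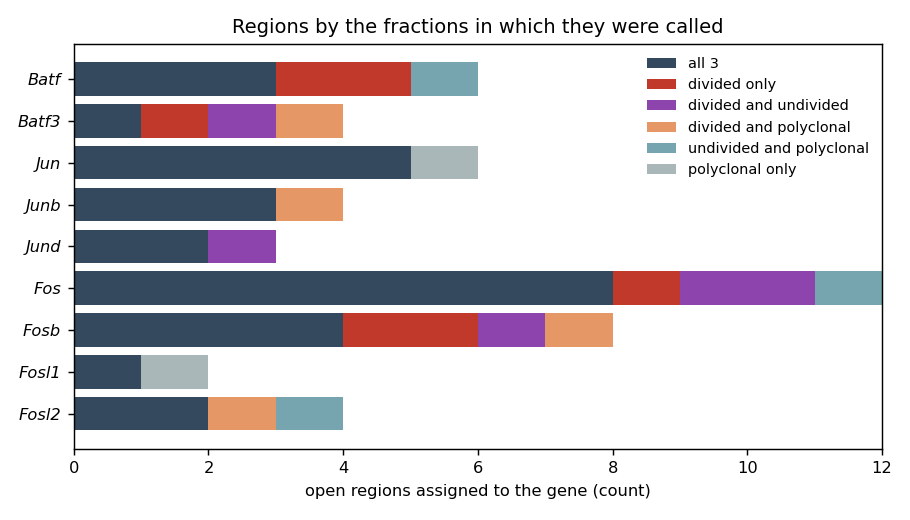
Number of open regions assigned to each gene (x axis, count), coloured by the fractions in which a peak was called. Fos had the most regions with 12 and Fosl1 the fewest with 2, and no region was called in the undivided library alone.

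The family's regions were called in all 3 fractions about as often as open regions in general. Of the 49 regions, 29 (59.2%, 95% Wilson interval 45.2 to 71.8) were called in every library, against 56.9% of all regions. Divided cells alone held 6, undivided cells alone 0 (0 of 49, an interval of up to 7.27%) and polyclonal cells alone 2, against 14.3%, 6.30% and 7.49% of all regions. Divided and undivided cells without polyclonal cells shared 5 (10.2%, interval 4.44 to 21.8), against 3.96% of all regions. These intervals treat the regions as independent draws, although several lie at each gene, and they test no difference from all regions. A peak was called at 44 regions in the divided library, 37 in the undivided library and 38 in the polyclonal library. Fewer cells with an open site and less opening per cell cannot be told apart in these pooled libraries.

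Divided against undivided cells, 10 of 49 member regions (20.4%) were called in divided cells only, against a background of 21.4% over all regions, and 3 (6.12%) in undivided cells only, against 10.3%. Divided against polyclonal cells, the counts were 11 (22.4%, background 18.3%) and 5 (10.2%, background 11.5%). Undivided against polyclonal cells, they were 5 (10.2%, background 10.3%) and 6 (12.2%, background 14.6%). Each of these shares lies close to its background. Among peaks with a −log10 q of at least 5, 7 were in divided and missing from undivided cells (background 12.4%) and 3 the reverse (background 4.94%). By the same threshold 7 were in divided and missing from polyclonal cells (background 9.72%) and 2 the reverse (background 4.99%). Undivided cells had 4 that polyclonal cells lacked (background 4.54%), and polyclonal cells 0 that undivided cells lacked (background 6.74%). The comparisons share libraries and are not independent.

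Pileups at regions called in both libraries were also close to those of all regions. Over 34 regions the median ratio of divided over undivided pileup was 1.03 (quartiles 0.884 and 1.21), beside 1.00 over all 34958 such regions. Over 33 regions the median ratio of divided over polyclonal was 0.998, beside 1.01 over all, and over 32 regions that of undivided over polyclonal was 0.941, beside 1.01. Scaled by lowest background, the median of divided over undivided was 0.827 for the members and 0.809 for all regions. Both medians thus shifted with the scale. At least a 2-fold higher pileup in divided than in undivided cells was found at 2 member regions (5.88%, background 4.28%) and a 2-fold lower one at 0 (background 3.44%). Against polyclonal cells the counts were 2 (6.06%, background 3.59%) and 0 (background 2.22%). Undivided over polyclonal passed 2-fold at 0 regions in either direction (backgrounds 1.38% and 1.70%).

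The members stood on crowded ground. Each gene had 5.44 regions on average, against 2.49 over all protein-coding genes, and 96.7% of genes had fewer regions than Fos. The median pileup of the members' peaks was 61 in divided cells, 65 in undivided cells and 64 in polyclonal cells, against 31 (divided), 30 (undivided) and 28 (polyclonal) over all regions. Their median local background was also higher, at 11.4 (divided), 6.44 (undivided) and 6.69 (polyclonal) fragments against 3.13 (divided), 2.43 (undivided) and 2.40 (polyclonal). The median of the authors' fold enrichment was lower, at 5.87 (divided), 6.95 (undivided) and 7.31 (polyclonal) against 7.32 (divided), 8.58 (undivided) and 8.01 (polyclonal). Summits of shared regions stood 12.5 bp apart in the median between divided and undivided cells, against 28 bp over all regions, and 24 of 34 lay within 50 bp, against 63.5% of all. Between divided and polyclonal cells the median was 22 bp against 29 bp, with 20 of 33 within 50 bp against 62.7% of all. Between undivided and polyclonal cells it was 22 bp against 28 bp, with 21 of 32 against 64.0%.

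BATF proteins lack the transactivation domain of Fos and act through the partners they bring together. Batf (chr12:85686720-85709087) had, after Batf3, the highest summed ratio of divided over undivided pileup in the family. The region over its start (chr12:85686173-85688074) had a pileup of 179 in divided cells, 125 in undivided cells and 129 in polyclonal cells. The divided value was the highest and the other libraries were nearly level. The ratio was 1.19 over undivided (0.94 to 1.505) and 1.17 over polyclonal (0.92 to 1.47), so that this region did not separate the fractions beyond counting error. The regions over the Junb and Fosb starts had ratios over undivided as high, at 1.22 and 1.21. The Batf summit lay 49 bp upstream of the start in both CBir1 libraries and 212 bp upstream in the polyclonal one. The Junb, Fosb and Fosl2 starts showed another pattern, given below with Fos.

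Inside Batf, 11612 bp after the start, a smaller region (chr12:85698197-85698583) had a pileup of 38 in divided cells, 15 in undivided cells and 21 in polyclonal cells. Among the Batf regions called everywhere the libraries differed most here, with a ratio of 2.101 over undivided (1.13 to 4.11) and 1.52 over polyclonal (0.87 to 2.73). Another region inside the gene (chr12:85704714-85706167) had 132 in divided cells, 90 in undivided cells and 88 in polyclonal cells, which is 1.22 (0.92 to 1.61) times the undivided and 1.26 (0.96 to 1.67) times the polyclonal value after scaling. Summed over the regions called in all 3 libraries, Batf had 349 fragments in divided cells, 230 in undivided cells and 238 in polyclonal cells. The ratio was 1.26 over undivided (1.06 to 1.49) and 1.23 over polyclonal (1.04 to 1.46), while undivided over polyclonal was 0.978 (0.812 to 1.18). With lowest background as the scale, divided over undivided became 1.01, divided over polyclonal 1.05 and undivided over polyclonal 1.04. The authors' fold enrichment divides by local background. By it, divided over undivided was 0.954 at the start, 1.02 at 11612 bp and 0.670 at 18965 bp after the start. Divided over polyclonal was 0.963, 1.07 and 0.830 at the same regions. The excess of Batf in divided cells thus depended on the measure. Of 13041 genes with such regions, 16.0% had a higher ratio of divided over undivided and 13.1% a higher ratio of divided over polyclonal.

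Divided cells also had Batf regions that the other lists lacked. One, 20629 bp before the start (chr12:85665952-85666165), reached 24 fragments with a −log10 q of 8.49. The other, 16971 bp after the start (chr12:85703575-85703791), reached 44 fragments with a −log10 q of 8.56. To be called in undivided cells, at the background expected there, they would have needed 12 and 24 fragments, and their scaled heights were 19.9 and 36.5. Both were narrow, at 214 and 217 bp, and the caller kept no peak under 150 bp. A weak region 3526 bp beyond the other end of the gene (chr12:85712613-85712903) was called in undivided and polyclonal cells, with 9 fragments in each, and not in divided cells. By the background of the nearest divided peak, 13.7 fragments at 7073 bp away, a call there would have needed 27 fragments. The background of the region itself, scaled to the divided library, was only 0.974, and its scaled height was 10.9. The need thus depends on the background used, and whether the missing call is a difference was not settled.

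Batf3 (chr1:191098414-191108943), a close relative of Batf best known as the factor that cross-presenting dendritic cells need, was the most weakly marked member beside Fosl1. Neither its start nor its promoter window lay under a peak, although the share of 17492 protein-coding genes with a promoter peak was 53.7% in the divided library, 52.4% in the undivided library and 52.7% in the polyclonal library. The nearest region (chr1:191097065-191097718) peaked 930 bp before the start, with 19 fragments in divided and 7 in polyclonal cells and no call in undivided cells. The ratio of divided over polyclonal was 2.28 with a wide interval (0.92 to 6.42). A call in undivided cells would have needed 7 fragments, and the scaled height was 15.8.

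The divided library had all 4 Batf3 regions, the undivided and the polyclonal library 2 each. The strongest, 27692 bp after the start (chr1:191125700-191126234), had 65 fragments in divided cells, 33 in undivided cells and 35 in polyclonal cells, or 1.63 (1.06 to 2.56) times the undivided and 1.56 (1.02 to 2.43) times the polyclonal value after scaling. It was the single Batf3 region called everywhere, and by lowest background the ratios were 1.32 over undivided and 1.33 over polyclonal. Another region beyond the gene (chr1:191110818-191111817) had 25 in divided and 10 in undivided cells, a ratio of 2.07 (0.96 to 4.84), and no polyclonal call. The last, inside the gene (chr1:191102755-191103041), had 9 in divided cells only. Of the genes with regions in every library, 4.33% had a higher ratio of divided over undivided than Batf3.

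Since dendritic cells are the best known users of Batf3, their markers were set beside it. Of 6 such genes, a peak within 1 kb of an end was found in divided cells at 3 (Xcr1, Clec9a, Flt3), and in undivided and in polyclonal cells at 2 (Xcr1, Flt3). Zbtb46, Siglech and Itgax had none in any library. Scaled to the divided library, the summed pileups of the 6 were 210 in divided cells, 238 in undivided cells and 225 in polyclonal cells, so that divided cells were lowest; the unscaled sums were 210 (divided), 197 (undivided) and 189 (polyclonal). Among 8 B cell markers such peaks were at 3 genes in the divided library, 1 in the undivided library and 2 in the polyclonal library, and Ms4a1 had none. Their scaled sums were nearly level, at 119 (divided), 115 (undivided) and 125 (polyclonal). By such gene-end peaks, markers of CD8 T cells, epithelium and myeloid cells were lower in divided cells. Of 2 CD8 T cell markers, Cd8b1 had a peak in every library, with 33 (divided), 61.5 (undivided) and 74.9 (polyclonal) scaled fragments. Of 4 epithelial markers, Epcam had one in every library and Cdh1 in undivided and polyclonal cells, with scaled sums of 25 (divided), 53.1 (undivided) and 58.3 (polyclonal). Of 6 myeloid markers, Itgam had one in undivided and polyclonal cells, with scaled sums of 0 (divided), 16.9 (undivided) and 26.2 (polyclonal). Over all regions nearest to these markers, calls in divided without undivided cells, and the reverse, were also counted (backgrounds 21.4% and 10.3%). They were 8 and 1 of 14 (B cell), 5 and 1 of 13 (myeloid) and 4 and 2 of 17 (dendritic cell). For epithelium they were 3 and 2 of 12, and for CD8 T cells 0 and 4 of 8. The part of other cells in the Batf3 values, or in those of the other members, was not tested.

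**Figure D2:**
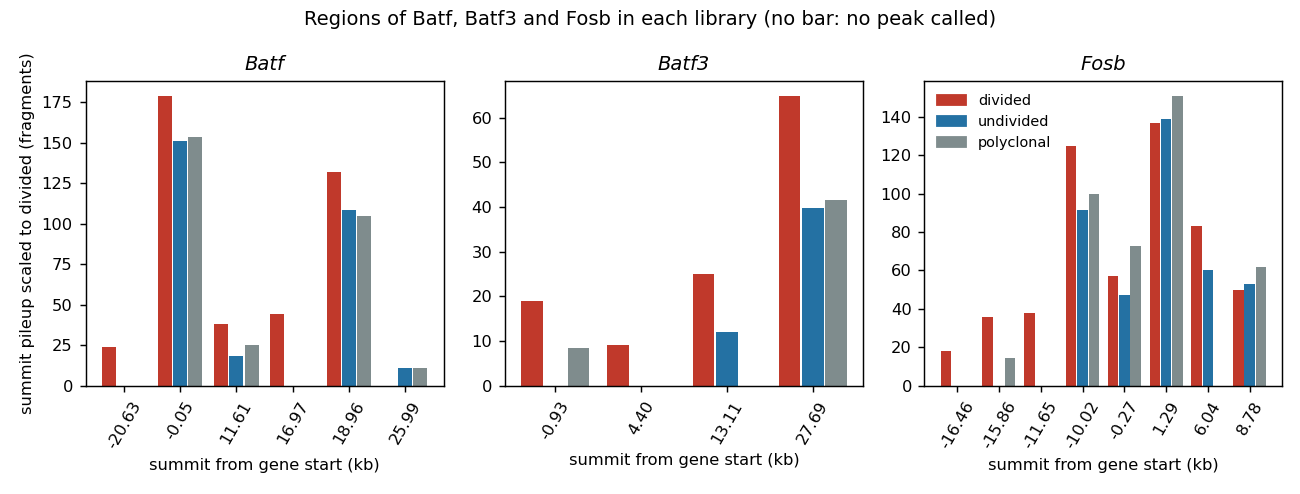
Summit pileup scaled to the divided library (y axis, fragments) at each region of Batf, Batf3 and Fosb, placed by the distance of the strongest summit from the gene start (x axis, kb, upstream negative), in divided, undivided and polyclonal cells. A missing bar means that no peak was called: at Batf3 only divided cells had a bar in all 4 regions.

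**Figure D3:**
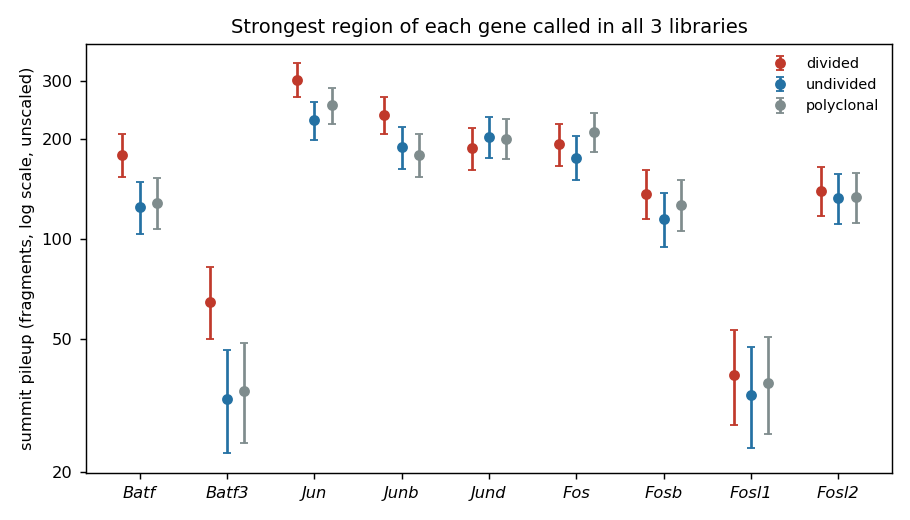
Unscaled summit pileup (y axis, fragments, log scale) at the strongest region of each gene among those called in all 3 libraries, with 95% Poisson intervals as bars. Jun reached 302 in divided cells, 228 in undivided cells and 253 in polyclonal cells, while Batf3 reached 65 (divided), 33 (undivided) and 35 (polyclonal) and Fosl1 39 (divided), 34 (undivided) and 37 (polyclonal).

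The Jun genes encode the partners that Fos and BATF proteins need to bind DNA. Summed over regions called everywhere, Jun and Junb were nearly level across fractions, while Jund was lower in divided than in undivided cells. Jun (chr4:95049036-95052222) had the strongest peak of the family. The region over its start (chr4:95051815-95053622) had a pileup of 302 in divided cells, 228 in undivided cells and 253 in polyclonal cells, with the summit 185 bp upstream of the start in each. After scaling the ratios were 1.10 over undivided (0.92 to 1.31) and 1.00 over polyclonal (0.85 to 1.19). The region also holds the promoter of Junos, a neighbouring gene, and its peak cannot be split between them.

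Most of the other Jun regions were shared too. An upstream region 54279 bp from the start (chr4:95106044-95107491) had 114 in divided cells, 81 in undivided cells and 96 in polyclonal cells, and 1 inside the gene (chr4:95050350-95050948) 110 (divided), 91 (undivided) and 86 (polyclonal). A region 65368 bp upstream was the farthest of all members, 64953 bp from the gene, with 24 (divided), 18 (undivided) and 26 (polyclonal) fragments. The first region beyond the distance limit whose nearest gene was Jun lay 108769 bp away and had 156 in divided cells, 175 in undivided cells and 149 in polyclonal cells. Another region, at chr4:95096859-95097139, was called in polyclonal cells alone, with 7 fragments. Summed, Jun had ratios of 1.07 over undivided (0.947 to 1.22) and 0.994 over polyclonal (0.879 to 1.12).

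Junb (chr8:84976909-84978748), whose product is needed for Th17 and Th2 programmes in mice, lay within a stretch of 4 regions. The region at the end of the gene (chr8:84975906-84977034) had 236 fragments in divided cells, 189 in undivided cells and 179 in polyclonal cells, and the next gene, Prdx2, was 1095 bp away. The region over the start (chr8:84978360-84979118) had 174 (divided), 118 (undivided) and 153 (polyclonal), and the region 1263 bp upstream (chr8:84979627-84980424) 151 (divided), 143 (undivided) and 141 (polyclonal). At the start the undivided library was lowest, with an undivided over polyclonal ratio of 0.78 (0.608 to 0.998). Summed, the ratios were 1.03 over undivided (0.912 to 1.17) and 0.997 over polyclonal (0.881 to 1.13).

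Junb also shows how a call depends on the ground around it. A region inside the gene (chr8:84977501-84977804) had 81 fragments in divided and 67 in polyclonal cells, above the median of all peaks, but a −log10 q of 4.21 and 3.30 only. The local background there was 44.9 and 37.1 fragments. No peak was called in undivided cells, where 59 fragments would have been needed and the scaled height of the divided peak was 67.2.

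Jund (chr8:70697739-70700616), whose product restrains T cell proliferation in mice, was among the members lowest in divided relative to the other cells. Its main region (chr8:70698348-70699695), 1048 bp inside the annotated start, had 188 fragments in divided cells, 203 in undivided cells and 201 in polyclonal cells. The divided value was the lowest although that library was the deepest, and the ratios were 0.77 (0.63 to 0.94) over undivided and 0.79 (0.64 to 0.96) over polyclonal. The second region (chr8:70700346-70701257), at the other end and 64 bp from Iqcn, had 103 (divided), 84 (undivided) and 70 (polyclonal), with ratios of 1.02 (0.75 to 1.37) over undivided and 1.24 (0.90 to 1.70) over polyclonal. Summed, Jund had 0.841 over undivided (0.712 to 0.993) and 0.903 over polyclonal (0.762 to 1.07). A region 1064 bp upstream (chr8:70696414-70696698) had 85 in divided and 65 in undivided cells and no polyclonal call, where 51 fragments would have been needed and the scaled height was 71.4. The promoter window at the RefSeq start had no peak in any library.

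Fos (chr12:85473890-85477274), the prototype immediate early gene, had 12 regions, of which 8 were called in all 3 libraries. The region over its start (chr12:85472938-85475025) had 153 fragments in divided cells, 137 in undivided cells and 123 in polyclonal cells, with ratios of 0.93 (0.73 to 1.17) over undivided and 1.05 (0.82 to 1.34) over polyclonal. Its summit lay at -131 in both CBir1 libraries and at -282 in the polyclonal one. Other starts differed from this pattern, with Junb summits at -114 (divided), 25 (undivided) and -114 (polyclonal). Fosb summits lay at -294, -76 and -272, and Fosl2 summits at -691, -999 and -783, in the same order. At these starts the undivided library stood apart, so the family showed no common shift between CBir1 and polyclonal cells. The strongest Fos region was not at the start but 18500 bp upstream (chr12:85454972-85455943), with 193 in divided cells, 176 in undivided cells and 210 in polyclonal cells. There the divided over polyclonal ratio was 0.77 (0.63 to 0.94) and the divided over undivided ratio 0.91 (0.74 to 1.12).

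Other strong Fos regions stood on both sides of the gene. One 26642 bp upstream (chr12:85446842-85447648) had 163 in divided cells, 129 in undivided cells and 112 in polyclonal cells, and another that lay 12149 bp after the start (chr12:85485648-85488065) 117 (divided), 96 (undivided) and 102 (polyclonal). Neither separated the fractions beyond counting error. Summed, Fos had ratios of 0.961 over undivided (0.864 to 1.07) and 0.929 over polyclonal (0.836 to 1.03), the narrowest intervals of the family.

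The 4 Fos regions that were not shared by all had at most 51 fragments. A region 1532 bp upstream (chr12:85472240-85472722) had 51 fragments in divided cells only, with a −log10 q of 7.86 and a need of 30 in undivided and 31 in polyclonal cells, against scaled heights of 42.3 and 42.9. A region 37434 bp upstream (chr12:85436096-85436576) was the reverse, with 12 in undivided and 15 in polyclonal cells, −log10 q values of 8.96 and 12.2, and no divided call although 7 fragments would have been enough. At 46068 bp upstream, a region had 9 in divided and 14 in undivided cells, and at 24516 bp after the start 1 had 6 and 7, neither with a polyclonal call.

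**Figure D4:**
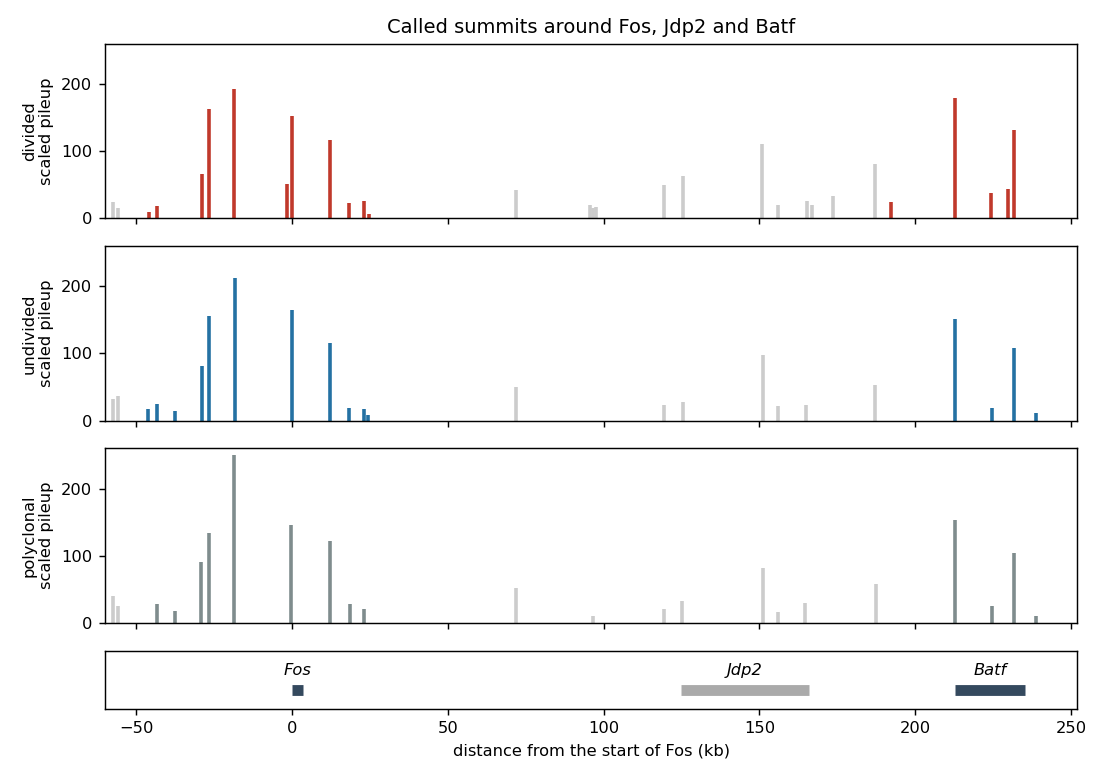
Summit pileup scaled to the divided library (y axis, fragments) against distance from the start of Fos (x axis, kb) in divided, undivided and polyclonal cells, with gene spans at the bottom. Lines in the library's colour are regions of Fos or Batf, and light grey lines all other regions. The tall Fos and Batf summits recur in every library.

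Fos and Batf lie on chromosome 12 with Jdp2, the gene of another AP-1 family repressor, between them. Jdp2, which was named after its values were seen, had 12 regions. All of them were called in the divided library, 7 in the undivided and 8 in the polyclonal one. Divided cells alone had 4, beside 14.3% of all regions. The Batf region 20629 bp before the start lay on the Jdp2 side, 26074 bp from that gene, and was given to Batf by distance only.

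Fosb (chr7:19302696-19310118), an inducible relative of Fos, had the most regions of the family that undivided cells lacked. All 8 were called in the divided library, and 5 each in the undivided and the polyclonal one. A region 15862 bp upstream (chr7:19325737-19326157) had 36 fragments in divided and 12 in polyclonal cells, a ratio of 2.52 (1.28 to 5.32), and none called in undivided cells, where 14 would have been needed against a scaled height of 29.9. Regions at 11646 and 16458 bp upstream (chr7:19321574-19321757 and chr7:19326486-19326635) had 38 and 18 fragments in divided cells only. The second of these was 150 bp wide, the shortest that the list holds. The regions at 15862 and 16458 bp upstream were given to Fosb by distance only. They lay 15619 and 16368 bp from Fosb, against 17910 and 17432 bp from Ercc1.

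At the Fosb gene itself the fractions were closer. The region 1293 bp after the start (chr7:19307972-19309134) had 137 in divided cells, 115 in undivided cells and 127 in polyclonal cells, and the region over the start (chr7:19310014-19310501) 57 (divided), 39 (undivided) and 61 (polyclonal). At the start the undivided over polyclonal ratio was 0.65 (0.42 to 0.98). A region 6040 bp after the start (chr7:19303881-19304343) had 83 in divided and 50 in undivided cells, a ratio of 1.38 (0.96 to 2.00), and was not called in polyclonal cells. This was the clearest absence from the polyclonal list, with −log10 q values of 27.3 and 14.8 in the CBir1 libraries and a need of 29 fragments against a scaled height of 69.8. The region 10018 bp upstream (chr7:19319578-19320570) had 125 (divided), 76 (undivided) and 84 (polyclonal), with ratios of 1.36 (1.02 to 1.84) over undivided and 1.25 (0.94 to 1.67) over polyclonal. At the far end (chr7:19300739-19301858) the pileups were 50 (divided), 44 (undivided) and 52 (polyclonal), and the region also holds the promoter of Gm26802. Summed over regions called everywhere, Fosb had 1.12 over undivided (0.953 to 1.31), 0.957 over polyclonal (0.822 to 1.11) and an undivided over polyclonal ratio of 0.856 (0.726 to 1.01).

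Fosl1 and Fosl2 encode the Fos-related antigens Fra-1 and Fra-2, which lack the transactivation domain of Fos. Fosl1 (chr19:5447698-5455938) had 1 region called in all libraries (chr19:5447240-5448062), with 39 fragments in divided cells, 34 in undivided cells and 37 in polyclonal cells. The ratios were 0.951 (0.585 to 1.55) over undivided and 0.886 (0.550 to 1.43) over polyclonal. Its other region (chr19:5448687-5448864) had 11 fragments in polyclonal cells only. Scaled to the divided library this is 13.1 against a need of 12, and scaled to the undivided library 10.9 against a need of 9.

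Fosl2 (chr5:32136472-32157840) had the lowest ratio of divided over undivided pileup in the family. The region over its start (chr5:32134993-32136827) had 140 fragments in divided cells, 133 in undivided cells and 134 in polyclonal cells, and a region 2730 bp upstream (chr5:32132963-32133815) 46 (divided), 59 (undivided) and 44 (polyclonal). The ratio over undivided was 0.87 (0.68 to 1.12) at the start and 0.65 (0.43 to 0.97) upstream. Summed, Fosl2 had 0.803 over undivided (0.653 to 0.988) and 0.878 over polyclonal (0.711 to 1.08), and 88.1% of genes had a higher divided over undivided ratio. A distal region beyond the gene (chr5:32192147-32192432) had 15 in divided and 7 in polyclonal cells, and 1 upstream (chr5:32110703-32111134) 10 in undivided and 10 in polyclonal cells. The upstream one lay 25338 bp from Fosl2 and 25753 bp from Babam2, and was given to Fosl2 by distance only.

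**Figure D5:**
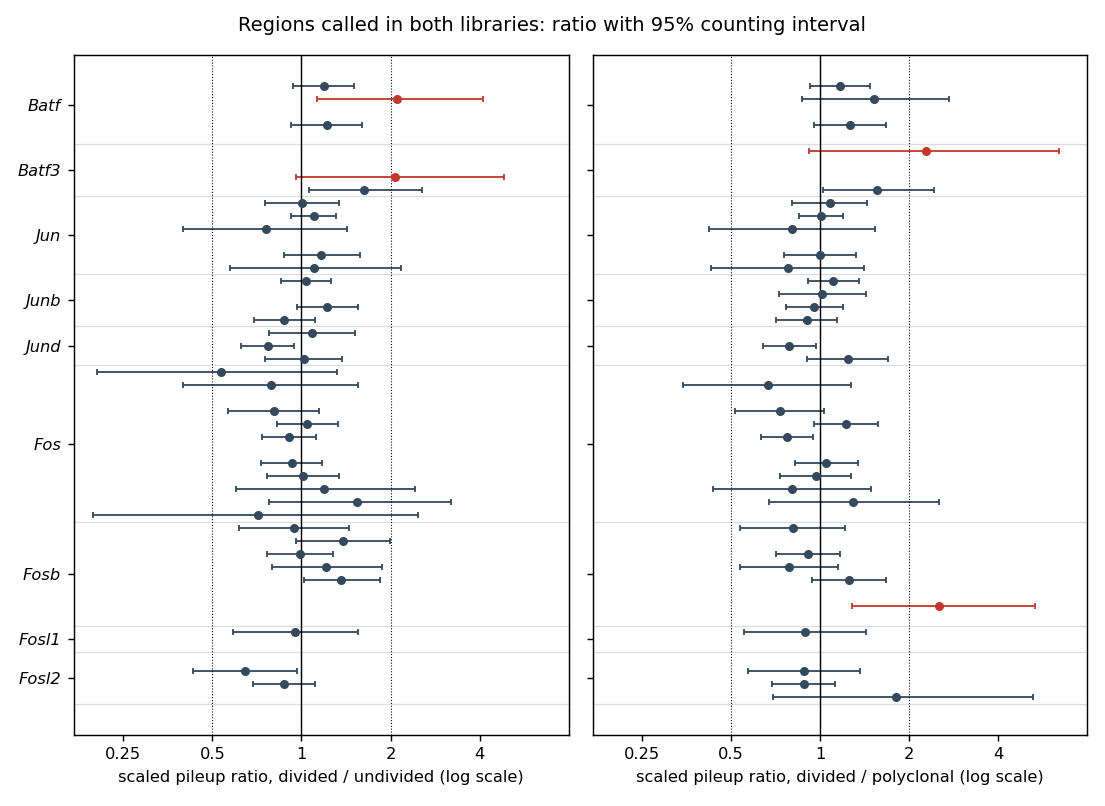
Ratio of divided over undivided pileup (left) and divided over polyclonal pileup (right) at each member region called in both libraries (x axes, log scale, scaled by shared regions), grouped by gene, with 95% exact intervals. Points in red are at least 2-fold, at Batf and Batf3 on the left and at Batf3 and Fosb on the right. Most intervals include 1.

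By summed pileup the order of divided over undivided ratios was Batf3 (1.63), Batf (1.26), Fosb (1.12), Jun (1.07), Junb (1.03), Fos (0.961), Fosl1 (0.951), Jund (0.841) and Fosl2 (0.803). Another depth scale moves all of them by the same factor, but the authors' fold enrichment, taken over local background, moves regions unequally. Neighbours in this order had overlapping intervals, while those of Batf lay above those of Jund and Fosl2. Of 34 single regions, the interval lay above 1 at 3 (Batf, Batf3, Fosb) and below 1 at 2 (Jund, Fosl2), and with lowest background as the scale at 0 and 7. For divided over polyclonal the counts were 2 and 2 of 33 regions, and 1 and 7 with that scale. For undivided over polyclonal they were 0 and 2 of 32, and 0 and 0. By the authors' fold enrichment, divided over undivided at the 3 regions with intervals above 1 was 1.02 (Batf), 1.13 (Batf3) and 0.883 (Fosb). At the 2 regions with intervals below 1 it was 0.863 (Jund) and 0.697 (Fosl2).

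By place, all 6 regions over an annotated start were called in all 3 libraries, beside 95.3% of the 8111 such regions over all genes. So were 8 of 13 others inside genes, 10 of 21 upstream and 5 of 9 downstream, beside 51.6%, 51.6% and 48.3% over all genes. No start was placed for Fosl1, which had no promoter window, so its regions were counted as inside the gene. Its region called in all libraries (chr19:5447240-5448062) crosses an end of that gene. The regions called in 1 library lay upstream (5) or inside genes (3). All 10 regions that divided cells had and undivided cells lacked reached, after scaling, the estimated need in undivided cells, and 9 of the 11 against polyclonal cells did. Their median widths were 286.5 and 287 bp. In the other directions, 2 of 3 did for undivided without divided, 3 of 5 for polyclonal without divided, 5 of 5 for undivided without polyclonal and 3 of 6 for polyclonal without undivided. Each region was chosen because it had passed the caller in 1 library, which makes reaching a similar need elsewhere likely. The share over all regions was not counted, so these counts do not settle whether an absence is real.

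Fos and Fosb each had 4 regions that were not shared by all, and Fos was taken for a search of similar genes by alphabetical order. Over the numbers of regions in the 7 combinations of fractions, Ccne1, Erc1 and Gm38664 came nearest to Fos among all protein-coding genes, at a Euclidean distance of 1.41, which 4 genes shared. Ccne1 and Gm38664 had 8 regions in all libraries and Erc1 7.

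Other genes of the pathway were read from 4 lists by regions called on 1 side, beside the backgrounds of 21.4% for divided without undivided and 10.3% for the reverse. The 24 other AP-1 and related zipper genes had 52 of 193 regions (26.9%) in divided only and 16 (8.29%) in undivided only. Bach2, a repressor that competes for AP-1 sites, had 15 against 9 of its 60 regions, and Atf6, a sensor of endoplasmic reticulum stress, 5 against 0. The 9 partner genes had 43 of 171 (25.1%) against 15 (8.77%), led by Nfatc2 with 12 against 1 and Nfatc1 with 6 against 0, both encoding NFAT factors. The 27 input kinases, phosphatases and serum response genes had 27 of 201 (13.4%) against 24 (11.9%), with Map3k1, a kinase of the MAP kinase cascades, at 3 against 0. The 22 target genes had 61 of 168 (36.3%) against 10 (5.95%), with Ifng at 11 against 0 and Icos at 11 against 1. At regions called in both libraries, the median ratios of divided over undivided were 0.922 (zipper genes), 1.12 (partners), 1.03 (kinases) and 1.08 (targets). The median over all such regions was 1.00. Irf4, the DNA partner of BATF, had 8 regions, all called in every library.

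Set against polyclonal cells (backgrounds 18.3% and 11.5%), the divided library had 44 regions against 19 at the zipper genes, 41 against 15 at the partners, 24 against 32 at the kinases and 39 against 14 at the targets. Nfatc2 had 13 against 2 and Ets1 6 against 2, Bach2 13 against 8, Atf6 5 against 1, Ifng 10 against 3 and Icos 6 against 3, while Dusp6 and Mapk9 each had 0 against 3. Undivided against polyclonal cells (backgrounds 10.3% and 14.6%), the counts were 14 against 25, 15 against 17, 15 against 26 and 14 against 40 in the same order of lists. Icos had 2 against 9, Il21 1 against 7, and Maf, Nfatc1 and Map3k1 0 against 4, Atf1 0 against 3, with Prkcq at 8 against 3 and Ets1 at 5 against 2.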

How the data were processed

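The data are 3 ATAC-seq libraries, 1 per fraction, taken from the peak lists that the authors deposited. Per the submitters' processing notes, the tools were bcl2fastq 2.17, cutadapt 1.12, Trimmomatic 0.33, Bowtie2 2.3.2, Picard, SAMtools and MACS2 2.1.0, with build mm10. Not stated there are how duplicate pools were combined, whether the Tn5 offset was applied, and whether mates were counted singly, so a pileup may count reads or fragments. The deposited lists give a score (the −log10 q-value times 10, cut to a whole number), a fold enrichment over local background, which is a linear ratio, and −log10 p and −log10 q values, each the authors' own value within its list. The lowest deposited −log10 q was 1.31, 1.30 and 1.30 in the divided, undivided and polyclonal list.

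Pileups were recovered as the whole number n for which the fold equals (n + 1)/(background + 1) and the −log10 p is the Poisson tail above n. A solution within 0.001 was found for all but 2, 2 and 3 peaks, and the procedure was tested on simulated data. Peaks sharing at least 1 bp were merged and given to the nearest RefSeq (GRCm38.p6) protein-coding span. A region inside several spans went to the gene with the nearest end. In a region with several peaks of a library, the highest pileup was used. The need for a call is the smallest pileup that passes the library's lowest −log10 p at the higher of 2 backgrounds: that of its nearest peak, and the scaled background of the strongest library at the region. Read totals are unknown. Python 3.11.15, NumPy 2.4.6, pandas 2.3.3 and SciPy 1.17.1 were used.

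With 1 library per fraction no test between fractions was possible. Described were the regions over or nearest to each gene's start or end, its strongest region, regions missing from a library with a −log10 q of at least 5, and regions past 2-fold; of each list of other genes, the 2 with the largest net count per comparison, with Jdp2 and Irf4 named after their values were seen. Some genes that these rules would name are not reported here. The members and lists were chosen with earlier results of these data known. The summit lists repeat the peak lists and were not used. Alternatives were other thresholds, distances, merging rules and scalings. Sequences came from RefSeq tables, and regions outside promoters were not searched because no genome sequence was used here.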

Additional observations from a re-analysis of the deposited data

How the results depend on the processing

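The number of member regions stayed between 36 and 51 under every alternative, and with assignment to the nearest gene end it was 49 as before. No paired analysis was possible because each fraction has 1 library, and for the same reason none could be left out. Counts moved mostly with the threshold. The threshold was set on the library with the call, and the other library had to lack a peak of any strength. At a −log10 q of at least 5, divided cells had 7 regions that polyclonal cells lacked and polyclonal cells 2 that divided cells lacked. Polyclonal cells had 0 that undivided cells lacked. By the same rule at 10, the counts were 3 for divided without undivided, 0 for undivided without divided, 3 for divided without polyclonal, 1 for polyclonal without divided, 1 for undivided without polyclonal and 0 for polyclonal without undivided. Within 20 kb, 1 was called in undivided and not divided, 2 in polyclonal and not divided and 3 in undivided and not polyclonal cells. With merging at 50% of the shorter peak, 5 were called in undivided and not divided cells. Limited by depth with either scaling, 3 were called in polyclonal and not undivided cells.

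The median ratio of divided over undivided was 0.827 scaled by lowest background, 1.24 unscaled and 0.927 by the authors' fold, and that of divided over polyclonal 0.851, 1.19 and 0.932. Undivided over polyclonal was 0.997 by lowest background and 1.02 by the authors' fold. At 1.5-fold, 4 regions were higher and 2 lower in divided than in undivided cells, 5 higher and 1 lower in divided than in polyclonal cells, and 1 lower in undivided than in polyclonal cells. By lowest background at 2-fold, 0 were higher and 1 lower in divided than in undivided cells, and 1 was higher in divided than in polyclonal cells. Beyond the changes that follow from fewer peaks or another scale, the cause was not tested. Of 135 counts per gene and library under the alternatives, 118 stayed within 1.5 times and 17 did not.

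Precision is limited by counting: the upper bound of a region's ratio was 1.89 times its lower bound in the median for divided over undivided cells. Peaks near the threshold and in crowded loci such as Junb are called or missed on few fragments.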
